A study of Homo sapiens with 6 samples.

Results

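Aminoacyl-tRNA synthetases are the enzymes that attach each amino acid to its tRNA. The 37 genes described here were taken by symbol from the 38986 rows of each count file: a capital letter followed by ars, with or without 1 or 2 at the end, together with Farsa, Farsb and Eprs. The 17 symbols that end in 2 encode the mitochondrial enzymes, and the other 20 are called cytosolic here. All 37 passed the filter on low counts. Gars and Kars sit in the cytosolic set by symbol, although each is known to encode the enzyme of both compartments.

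Charging uses ATP and has to match amino acid and tRNA exactly, because the ribosome does not check the amino acid again. The cytosolic enzymes serve the translation of nuclear mRNAs. The mitochondrial enzymes are encoded in the nucleus, imported, and charge tRNAs of the mitochondrial genome for the synthesis of respiratory chain subunits. Some cytosolic synthetases are held together with scaffold proteins in a multisynthetase complex. Uncharged tRNA activates the kinase GCN2, and the transcription factor ATF4 that follows is known to induce several cytosolic synthetase genes.

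RNA was sequenced from 3 libraries labelled as 293T cells with STAT6 overexpression and 3 libraries labelled as Mock, wild-type 293T cells, both described as mCherry-positive. 293T is a human line derived from embryonic kidney and expressing an SV40 T antigen, and STAT6 is a transcription factor of interleukin 4 and interleukin 13 signalling. The series was designed to ask how STAT6 bears on mitochondrial gene expression. The labels give neither the construct, nor the way it was introduced, nor the number of cell clones. Nor do they say whether each library is its own culture, and a p-value below covers only the variation among the sequenced libraries, possibly technical.

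The files go against the labels. Their symbols are mouse symbols, 17 of them being identical to a human symbol, and no row is named STAT6. Stat6 had 35.1, 33.6 and 32.1 CPM, counts scaled to a common library size, in the STAT6-labelled libraries, against 95.2, 95.5 and 92.8 CPM in the Mock-labelled libraries, so it was lower where overexpression is labelled. All 7 pigment cell markers reached 1 CPM in each library, with sums of 16705 to 16841 CPM in the STAT6-labelled libraries and 14404 to 14750 CPM in the Mock-labelled ones. None of 7 embryonic kidney markers did, their sums being 3.23 to 3.54 CPM and 0 CPM, with Pax8 and Six2 at 0 in all 6. Fibroblast markers summed to 78.5 to 84.9 CPM in STAT6-labelled and 18.7 to 20.7 CPM in Mock-labelled libraries, with 3 of 5 at 1 CPM or more throughout. Of 5 macrophage markers none reached that level in every library, with sums of 3.63 to 4.12 CPM in STAT6-labelled and 1.12 to 1.39 CPM in Mock-labelled libraries. None of 3 endothelial markers did, with sums of 0.441 to 0.979 CPM in STAT6-labelled and 0 to 0.229 CPM in Mock-labelled libraries, and Adgre1 and Cdh5 were at 0 in all. The sums of all 5 marker lists were higher in the STAT6-labelled libraries without overlap. The part of these cell markers in the results below was not tested, and in bulk RNA fewer cells of a type and less RNA per cell cannot be told apart. Every direction below follows the labels alone. Libraries held 19894773 to 23648304 counts in the STAT6-labelled group and 22368757 to 29802693 in the Mock-labelled group.

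Most synthetase genes had lower transcript levels in the STAT6-labelled libraries, in both compartments. Of the 20 cytosolic genes 13 were lower, 2 were higher and 5 did not pass the threshold, an adjusted p of 0.05 in edgeR's quasi-likelihood test over all 12938 genes tested. Of the 17 mitochondrial genes 14 were lower, 1 was higher and 2 did not pass. Over all genes tested 72.6% passed, 36.8% as lower and 35.8% as higher. The cytosolic share that passed, 75%, was near that background, while the lower share was 65% of cytosolic and 82.4% of mitochondrial genes. The median log2 fold change, as STAT6-labelled over Mock-labelled, was -0.16 for the cytosolic genes and -0.47 for the mitochondrial genes, beside -0.0033 over all genes tested. Falls of at least 1.5-fold past the threshold were seen in 4 cytosolic and 7 mitochondrial genes, or 20% and 41.2%, where 11.3% of all genes tested had such a fall.

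**Figure D1:**
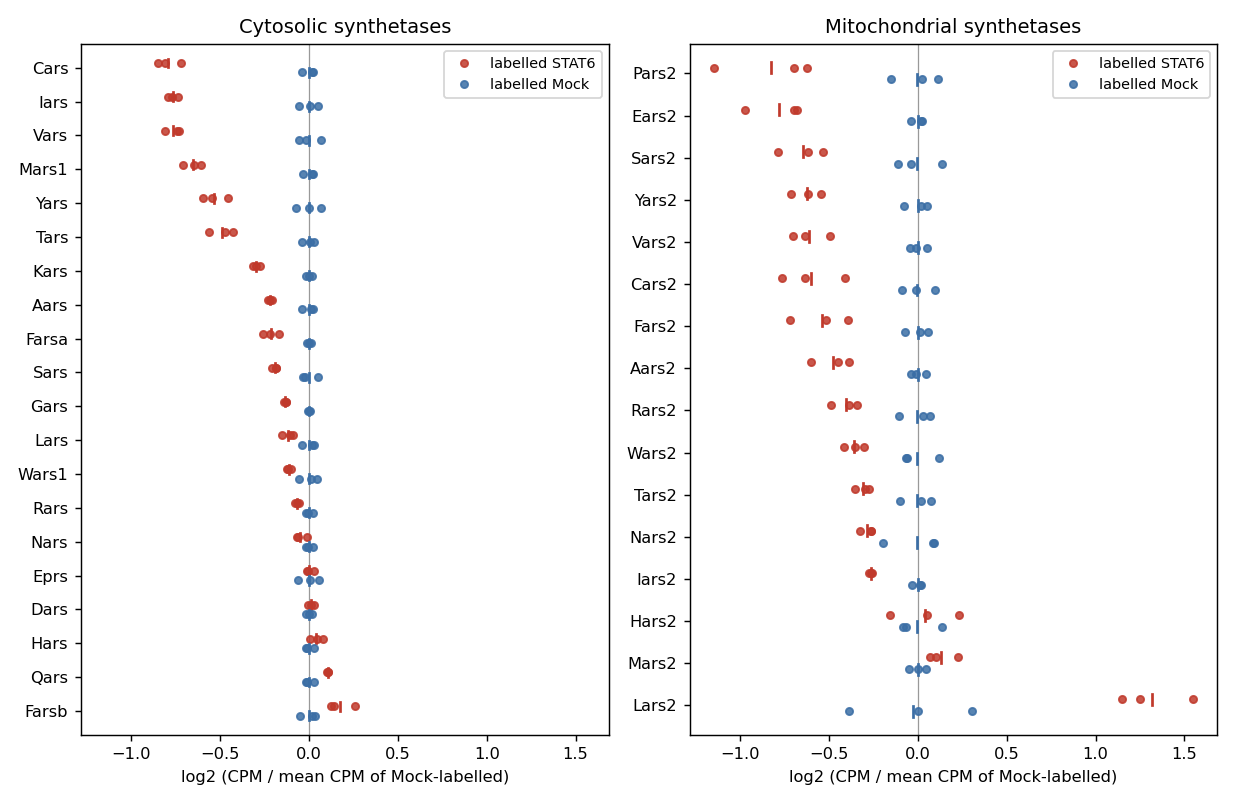
Level of each synthetase gene in each library, as log2 of its CPM over its mean CPM in the Mock-labelled libraries (x axis), with genes in rows, 20 cytosolic genes on the left and 16 of the mitochondrial genes on the right. Dots are libraries (3 STAT6-labelled in red, 3 Mock-labelled in blue) and short bars are means of the log2 values. Most red dots lie left of the blue ones, Farsb and Qars lie slightly right, and Lars2 lies far right with a wide spread in both groups.

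The largest cytosolic falls were in 6 genes, Cars, Iars, Vars, Mars1, Yars and Tars. Cars, which charges cysteine tRNA, had 47.2, 48.6 and 51.8 CPM in the STAT6-labelled libraries, against 83.0, 86.3 and 86.4 CPM in the Mock-labelled libraries. The isoleucine gene Iars had 152, 155 and 149.6 CPM in the STAT6-labelled libraries and 249, 268 and 259.5 CPM in the Mock-labelled ones. Both genes lay lower in every STAT6-labelled library than in any Mock-labelled one, as did 14 of 20 cytosolic and 14 of 17 mitochondrial genes in all, where 37.7% of all genes tested did. The log2 fold change was -0.79 for Cars (SE 0.04, adjusted p = 3.97e-18) and -0.77 for Iars (SE 0.03, adjusted p = 8.77e-21).

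Vars, the valine enzyme, had 66.3, 70.0 and 69.3 CPM in STAT6-labelled libraries, against 115, 122 and 112 CPM in Mock-labelled libraries. Mars1, which charges methionine tRNA for both initiation and elongation, had 64.2, 62.7 and 60.0 CPM in STAT6-labelled libraries, against 99.3, 95.7 and 99.0 CPM in Mock-labelled libraries. These genes too were lower without overlap, by a log2 fold change of -0.76 for Vars (SE 0.04, adjusted p = 1.88e-18) and -0.65 for Mars1 (SE 0.04, adjusted p = 1.28e-16). Yars, whose human counterpart is mutated in a form of Charcot-Marie-Tooth neuropathy, had 49.2, 54.3 and 50.8 CPM in STAT6-labelled libraries, against 70.7, 74.4 and 78.0 CPM in Mock-labelled libraries. For the threonine gene Tars the levels were 102, 93.2 and 98.9 CPM in STAT6-labelled libraries and 134, 138 and 140.4 CPM in Mock-labelled libraries. Neither gene overlapped between groups, and the log2 fold changes were -0.54 for Yars (SE 0.05) and -0.49 for Tars (SE 0.04).

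A second set of cytosolic genes fell by less. Kars, whose alternatively spliced transcripts give the lysine enzymes of cytosol and mitochondria, had 208, 206 and 212 CPM in STAT6-labelled libraries, against 256, 253 and 259 CPM in Mock-labelled libraries (log2 fold change -0.30, SE 0.03, adjusted p = 1.83e-10). Aars, the alanine enzyme with an editing domain that removes mischarged serine, had 329.6, 327 and 332 CPM in STAT6-labelled libraries, against 373, 390.3 and 387 CPM in Mock-labelled libraries (log2 fold change -0.22, SE 0.03, adjusted p = 5.7e-08). Both were lower in each STAT6-labelled library, by a smaller step than the genes above. On the log2 scale Sars, for serine, was lower at -0.20 (SE 0.03), Gars, for glycine in both compartments, at -0.13 (SE 0.03), Lars, for leucine, at -0.12 (SE 0.03) and Wars1, for tryptophan, at -0.12 (SE 0.04). Adjusted p for these 4 lay between 4.49e-06 for Sars and 0.00572 for Wars1.

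The subunits of phenylalanyl-tRNA synthetase moved apart. The cytosolic enzyme is built from the catalytic alpha subunit, encoded by Farsa, and the beta subunit, encoded by Farsb. Farsa had 35.3, 33.1 and 34.1 CPM in STAT6-labelled libraries, against 39.4, 39.7 and 39.9 CPM in Mock-labelled libraries. Farsb had 112, 103 and 102 CPM in STAT6-labelled libraries, against 94.7, 90.2 and 95.5 CPM in Mock-labelled libraries. Farsa was thus lower (log2 fold change -0.22, SE 0.05, adjusted p = 0.000274) and Farsb higher (0.18, SE 0.04, adjusted p = 0.000172), each without overlap between groups.

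Qars was the other cytosolic gene called higher. It encodes the glutamine enzyme, a member of the multisynthetase complex, and had 96.5, 96.3 and 96.3 CPM in STAT6-labelled libraries, against 91.4, 88.5 and 89.0 CPM in Mock-labelled libraries. The log2 fold change was 0.10 (SE 0.04, adjusted p = 0.0116). With library totals in place of TMM scaling it was 0.03 (adjusted p = 0.465), and with no filter on low counts it was 0.09 (adjusted p = 0.0655), so the call was lost in both.

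For 5 cytosolic genes the threshold was not passed. Eprs, the fused glutamate and proline enzyme, stood at 438.5 ± 6.30 CPM in STAT6-labelled and 438 ± 17.7 CPM in Mock-labelled libraries (SD, n = 3 each). Dars, for aspartate, stood at 156 ± 1.75 CPM in STAT6-labelled and 155 ± 1.94 CPM in Mock-labelled libraries. The log2 fold changes were 0.00 for Eprs, 0.01 for Dars, 0.04 for the histidine gene Hars, -0.05 for the asparagine gene Nars and -0.07 for the arginine gene Rars, each with an SE of 0.03 except Hars with 0.04. Those of Eprs, Dars and Hars turned negative under library totals (-0.07, -0.06 and -0.03), and with that scaling Nars, Rars and Eprs passed as lower.

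The cytosolic genes were also grouped by structural class and by complex. Synthetases fall into class I and class II, which have unrelated catalytic domains. The 9 cytosolic class I genes comprised 7 lower and 1 higher, and their log2 fold changes had a median of -0.54. The 10 class II genes comprised 6 lower and 1 higher, and their median was -0.16, and Eprs, which holds an enzyme of each class, was counted in neither. The 4 cytosolic falls of at least 1.5-fold (Cars, Iars, Vars and Mars1) were all in class I genes. Among mitochondrial genes, falls of that size were in both classes. The mitochondrial medians were -0.41 for class I and -0.50 for class II. Within the multisynthetase complex (Eprs, Iars, Lars, Mars1, Qars, Rars, Kars and Dars) 4 of 8 genes were lower and 1 higher (median -0.09), and outside it 9 of 12 were lower and 1 higher (median -0.21). Over all genes tested 36.8% were lower and 72.6% passed. The share that passed was 88.9% in class I, 70% in class II, 62.5% in the complex and 83.3% outside it. These splits are descriptions of small sets and were given no test.

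Of the mitochondrial synthetase genes, 14 of 17 fell. Pars2, which charges mitochondrial proline tRNA, was the most weakly detected member, with 41, 47 and 52 counts in the STAT6-labelled libraries and 98, 82 and 122 counts in the Mock-labelled libraries. In CPM this was 1.77, 2.42 and 2.55 in STAT6-labelled libraries, against 4.25, 3.53 and 3.99 in Mock-labelled libraries. The groups did not overlap, and the log2 fold change was -0.81 with a wide SE of 0.17 (adjusted p = 8.48e-05). Ears2, the glutamate enzyme, whose human counterpart is mutated in a leukoencephalopathy, had 6.997, 5.72 and 6.91 CPM in STAT6-labelled libraries, against 11.4, 11.3 and 10.9 CPM in Mock-labelled libraries. It was lower without overlap, at -0.77 on the log2 scale (SE 0.10, adjusted p = 1.69e-08).

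Sars2, for mitochondrial serine tRNAs, had 8.38, 7.88 and 7.01 CPM in STAT6-labelled libraries, against 11.8, 11.2 and 13.3 CPM in Mock-labelled libraries. It fell without overlap, at -0.65 on the log2 scale (SE 0.10, adjusted p = 3.06e-07). Yars2, for tyrosine, had 13.1, 14.0 and 14.8 CPM in STAT6-labelled libraries, against 22.3, 20.3 and 21.8 CPM in Mock-labelled libraries. Vars2, for valine, had 10.2, 11.2 and 9.75 CPM in STAT6-labelled libraries, against 15.7, 16.4 and 15.4 CPM in Mock-labelled libraries. Cars2, for cysteine, had 8.08, 7.37 and 9.41 CPM in STAT6-labelled libraries, against 13.4, 11.8 and 12.4 CPM in Mock-labelled libraries. None of these 3 overlapped between groups, and their log2 fold changes were -0.63 for Yars2 (SE 0.07), -0.61 for Vars2 (SE 0.08) and -0.59 for Cars2 (SE 0.09).

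The remaining falls were smaller. They were -0.53 on the log2 scale for the phenylalanine gene Fars2 (SE 0.09), a monomer unlike its cytosolic counterpart, -0.47 for the alanine gene Aars2 (SE 0.09) and -0.41 for the arginine gene Rars2 (SE 0.06), whose human counterpart is mutated in a pontocerebellar hypoplasia. Wars2, for tryptophan, stood lower at -0.36 (SE 0.08), Tars2, for threonine, at -0.30 (SE 0.06) and Iars2, for isoleucine, at -0.26 (SE 0.03). Their adjusted p lay between 2.69e-08 for Iars2 and 0.00018 for Wars2. Nars2, for asparagine, had the weakest call (-0.27, SE 0.10, adjusted p = 0.0171), which was lost with DESeq2 (adjusted p = 0.0578), without STAT6 replicate 3 (0.0534) and without Mock replicate 1 (0.066) or 2 (0.0655).

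Mars2 and Hars2 did not pass the threshold. Mars2, the mitochondrial methionine enzyme, had 17.1, 18.7 and 16.8 CPM in STAT6-labelled libraries, against 16.01, 15.5 and 16.5 CPM in Mock-labelled libraries (log2 fold change 0.13, SE 0.07, adjusted p = 0.1). Hars2, the histidine enzyme, had 18.4, 14.0 and 16.2 CPM in STAT6-labelled libraries, against 17.2, 14.96 and 14.8 CPM in Mock-labelled libraries (0.06, SE 0.09, adjusted p = 0.52). The groups overlapped for Hars2 and just failed to overlap for Mars2. The value of Hars2 turned negative under library totals (-0.01). Hars and Hars2 are close paralogs, so reads between them may be split uncertainly.

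Lars2 was the 1 mitochondrial member called higher. It encodes the mitochondrial leucine enzyme, and its human counterpart is mutated, like that of Hars2, in Perrault syndrome. It had 843, 905.5 and 1114 CPM in the STAT6-labelled libraries, against 469, 291 and 380.2 CPM in the Mock-labelled libraries. The groups did not overlap, but libraries of the same label differed widely, with 954 ± 142 CPM in STAT6-labelled and 380.2 ± 89.1 CPM in Mock-labelled libraries (SD, n = 3 each). The log2 fold change was 1.33 with an SE of 0.23 (adjusted p = 0.00573), and leaving out any library kept it between 1.17 and 1.499, past the threshold each time. Its cytosolic counterpart Lars was called in the other direction, with 139.9, 134 and 138 CPM in STAT6-labelled libraries, against 145, 150.4 and 152 CPM in Mock-labelled libraries, again without overlap.

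Counts of Lars2 moved in part with those of Gm26917, an abundant noncoding row chosen for comparison after its values were seen. Gm26917 had 12681, 12503 and 18337 CPM in STAT6-labelled libraries, against 12304, 7934 and 9528 CPM in Mock-labelled libraries. The highest library of the STAT6-labelled group and the highest and lowest of the Mock-labelled group were the same for both rows. The lowest STAT6-labelled library was not. Among the rows looked at, AY036118 and mt-Rnr1 shared this order with Gm26917, while mt-Rnr2 and Malat1 differed from it in the Mock-labelled group. These rows were picked in part as related to rRNA, so they are not neutral controls. In level mt-Rnr1 went the other way from Lars2, with a log2 fold change of -0.42 (adjusted p = 0.0467). Malat1 went the same way as Lars2, at 1.60 (adjusted p = 0.000679). AY036118 (0.40, adjusted p = 0.351) and mt-Rnr2 (-0.23, adjusted p = 0.0621) did not pass the threshold. Gm26917 itself did not pass the threshold (log2 fold change 0.55, SE 0.25, adjusted p = 0.121). Lars2 counts were 6.65%, 7.24% and 6.08% of Gm26917 counts in the STAT6-labelled libraries, against 3.81%, 3.67% and 3.99% in the Mock-labelled libraries. This ratio did not overlap between groups and was 1.74 times as high in the STAT6-labelled libraries, less than the 2.51-fold of Lars2 alone. The part of Gm26917 or of reads shared with other rows in the Lars2 counts was not tested.

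Because of its counts, Lars2 decides what a sum over the mitochondrial genes shows. It held 73.7%, 75.3% and 79.1% of their summed CPM in the STAT6-labelled libraries, against 54.7%, 43.7% and 49.8% in the Mock-labelled libraries. With Lars2 the 17 genes summed to 1252 ± 139 CPM in STAT6-labelled and 763 ± 96.0 CPM in Mock-labelled libraries (SD, n = 3 each), a ratio of 1.64. Without it the other 16 genes summed to 298 ± 3.02 CPM in STAT6-labelled and 383 ± 6.93 CPM in Mock-labelled libraries, a ratio of 0.778. The cytosolic genes summed to 3132 ± 16.4 CPM in STAT6-labelled and 3598 ± 38.5 CPM in Mock-labelled libraries, a ratio of 0.87. CPM are not scaled to transcript length, so these sums compare groups and not compartments.

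**Figure D2:**
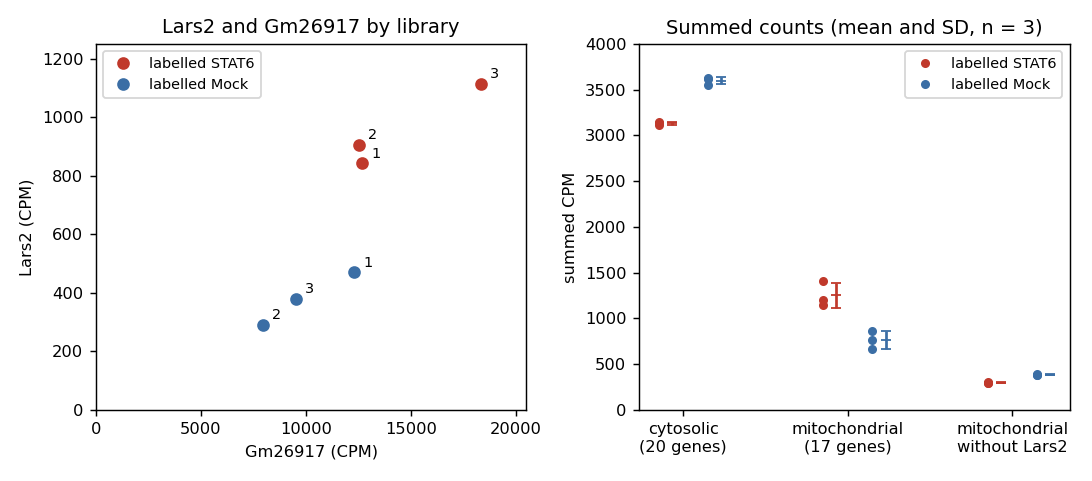
Left, Lars2 against Gm26917 in CPM, 1 numbered dot per library (STAT6-labelled in red, Mock-labelled in blue). Right, summed CPM of the cytosolic genes, of all mitochondrial genes and of the mitochondrial genes without Lars2, with dots for libraries and mean and SD beside them (n = 3 per group). The mitochondrial sum is higher in the STAT6-labelled libraries with Lars2 and lower without it.

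The compartments were then compared within each amino acid. The count of the mitochondrial gene was divided by that of the cytosolic gene in the same library, which cancels the scaling of the library, and only the change of the ratio is read, since transcript lengths differ. Of 17 ratios 9 were lower without overlap in the STAT6-labelled libraries, 4 were higher without overlap and 4 overlapped. Among genes tested singly 74.6% did not overlap, 37.7% as lower and 36.9% as higher. Single genes are a different measure, and such a share was not computed for ratios of gene pairs. In an exact permutation test, 2-sided, over 20 assignments of the libraries, the 13 ratios without overlap had p = 0.1, the smallest this design can give, and an adjusted p of 0.131 over the 17 ratios, so none can pass.

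The ratio fell furthest for proline and glutamate, whose shared cytosolic gene Eprs did not pass the threshold. Ears2 to Eprs was 0.0161, 0.0131 and 0.0155 in STAT6-labelled libraries, against 0.0271, 0.0249 and 0.0248 in Mock-labelled libraries, a log2 difference of -0.78. The glutamate ratio was thus lower in each STAT6-labelled library than in any Mock-labelled one. The proline ratio of Pars2 to Eprs differed by -0.82, on the low counts of Pars2. Smaller log2 differences without overlap included -0.45 for serine, -0.34 for arginine, -0.32 for phenylalanine (-0.72 with Farsb in place of Farsa), -0.26 for alanine, -0.24 for tryptophan and -0.23 for asparagine.

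Apart from leucine, the ratio rose furthest for methionine and isoleucine, whose cytosolic genes Mars1 and Iars were lower. Mars2 to Mars1 was 0.267, 0.299 and 0.279 in STAT6-labelled libraries, against 0.161, 0.162 and 0.167 in Mock-labelled libraries, a log2 difference of 0.79. Iars2 to Iars was 0.749, 0.734 and 0.754 in STAT6-labelled libraries, against 0.554, 0.496 and 0.529 in Mock-labelled libraries, a log2 difference of 0.50. For methionine and isoleucine each STAT6-labelled library therefore lay above all Mock-labelled ones. The valine ratio was higher by 0.15 without overlap, and that of leucine by 1.46, on the counts of Lars2 described above. For tyrosine (-0.09), histidine (0.00), threonine (0.18) and cysteine (0.19) the groups overlapped. The tyrosine, threonine and cysteine genes were each lower in both compartments, and neither histidine gene passed the threshold. Genes lower in both compartments were also found where the ratio did not overlap, as for serine and isoleucine.

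**Figure D3:**
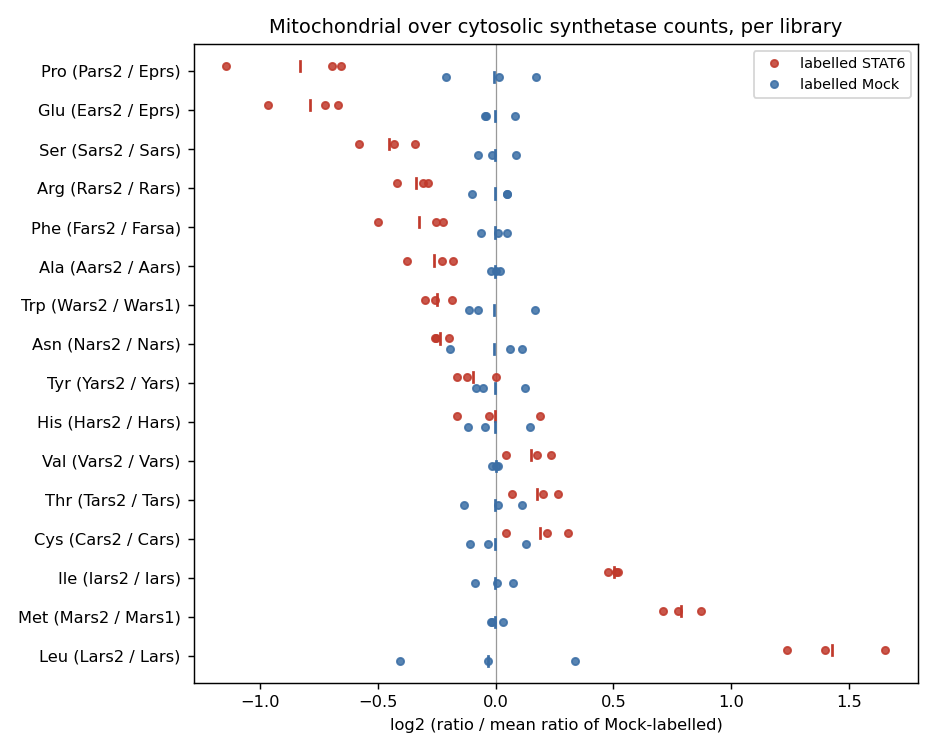
Ratio of mitochondrial to cytosolic synthetase counts for 16 of the amino acids (rows), as log2 of the ratio over its mean in the Mock-labelled libraries (x axis). Dots are libraries (3 STAT6-labelled in red, 3 Mock-labelled in blue) and short bars are means of the log2 values. The 8 ratios shown from proline to asparagine, lie left of the Mock-labelled dots without overlap, and those of valine, isoleucine, methionine and leucine lie right of them.

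The other genes of tRNA charging were read against the same background, 36.8% lower and 35.8% higher over all genes tested. The scaffold genes of the multisynthetase complex were lower in 3 of 3 cases: Aimp1 at -0.15 on the log2 scale (adjusted p = 0.0031), Aimp2 at -0.16 (adjusted p = 0.0102) and Eef1e1, which encodes the smallest scaffold protein, at -0.29 (adjusted p = 1.26e-06). In the list of synthetase-like and proofreading genes 1 of 4 tested was lower, namely Dtd1, which removes D-amino acids from tRNA (-0.31, adjusted p = 3.29e-05). Prorsd1 (-0.19), Aarsd1 (-0.05) and Dtd2 (0.06) did not pass. Tarsl2, a second threonine synthetase gene outside the symbol rule, had 3 counts in 1 STAT6-labelled library and 0 in the other 5, and was not tested.

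Mitochondria have no glutaminyl-tRNA synthetase and make glutaminyl-tRNA from glutamyl-tRNA with the amidotransferase GatCAB. Its subunit genes moved in different directions. Gatb had 10.97, 11.2 and 10.3 CPM in STAT6-labelled libraries, against 20.01, 19.9 and 21.8 CPM in Mock-labelled libraries. Gatc had 16.7, 15.1 and 17.1 CPM in STAT6-labelled libraries, against 24.4, 25.5 and 26.1 CPM in Mock-labelled libraries. Qrsl1, which encodes the A subunit, had 26.4, 25.8 and 24.4 CPM in STAT6-labelled libraries, against 15.6, 16.03 and 16.1 CPM in Mock-labelled libraries. Gatb and Gatc were lower without overlap (log2 fold changes -0.93 and -0.64, adjusted p = 1.84e-13 and 1.05e-10) and Qrsl1 was higher without overlap (0.68, adjusted p = 1.15e-11). Mtfmt, which formylates the initiator methionyl-tRNA of mitochondria, did not pass (0.09, adjusted p = 0.32).

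Selenocysteine is made on its tRNA after charging with serine by Sars. Of 4 genes listed around selenocysteine, not all of them acting in this step, 3 were lower: Eefsec (-0.61), Secisbp2 (-0.44) and the kinase gene Pstk (-0.42). Sepsecs, the gene of the final synthase, was higher (0.21, adjusted p = 0.00163). Over all genes tested 36.8% were lower and 72.6% passed. Of 8 genes for tRNA end maturation and export 5 were lower, 1 was higher and 2 did not pass, so that 75% passed, near the 72.6% of all genes. The tRNA exportin Xpot was lower, at -0.47 on the log2 scale (adjusted p = 4.44e-14), and Elac1, a tRNA 3' processing nuclease, was higher, at 0.44 (adjusted p = 0.000112). The mitochondrial RNase P genes Hsd17b10 (-0.34), Prorp (-0.33) and Trmt10c (-0.13) were all lower, as was Elac2 (-0.21), while Trnt1, which adds the CCA end (0.04), and the ligase gene Rtcb (0.03) did not pass.

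Of 5 genes listed around the sensing of uncharged tRNA, 3 were lower and 2 were higher, again beside 72.6% of all genes passing. Eif2ak4, which encodes GCN2, had 30.1, 32.7 and 31.2 CPM in STAT6-labelled libraries, against 47.9, 42.2 and 40.4 CPM in Mock-labelled libraries, and was lower in each. Its activator Gcn1 had 75.4, 73.1 and 79.1 CPM in STAT6-labelled libraries, against 100.5, 106 and 98.6 CPM in Mock-labelled libraries. Both were lower without overlap (log2 fold change -0.47 for Eif2ak4 and -0.42 for Gcn1). Impact, an inhibitor of GCN2 activation, had 178, 175 and 176 CPM in STAT6-labelled libraries, against 126, 132 and 125 CPM in Mock-labelled libraries, and was higher without overlap (0.47, adjusted p = 1.46e-14). Eif2s1, the substrate of GCN2, was lower (-0.15), and Map3k20, the ribotoxic stress kinase gene, was higher (0.40).

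Of 12 listed genes of the ATF4 response, Atf4 included, 8 were lower, 2 were higher and 2 did not pass, where 36.8% of all genes were lower and 72.6% passed. The median was -0.98 on the log2 scale, beside -0.0033 over all genes. Atf4 had 172, 171 and 172 CPM in STAT6-labelled libraries, against 269, 260.3 and 276 CPM in Mock-labelled libraries, lower without overlap by -0.64 (SE 0.03, adjusted p = 4.29e-19). The log2 fold changes of Nupr1 (-2.26), Trib3 (-1.92), Chac1 (-1.57), Phgdh (-1.55), Slc7a11 (-1.36), Asns (-1.10) and Psat1 (-0.86) were negative and past the threshold. Sesn2 (0.79) and Ppp1r15a (0.87) were higher, and Ddit3 (0.05) and Cebpg (-0.05) did not pass. This list overlaps genes whose fall in these libraries was known beforehand, so its count is no independent evidence.

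**Figure D4:**
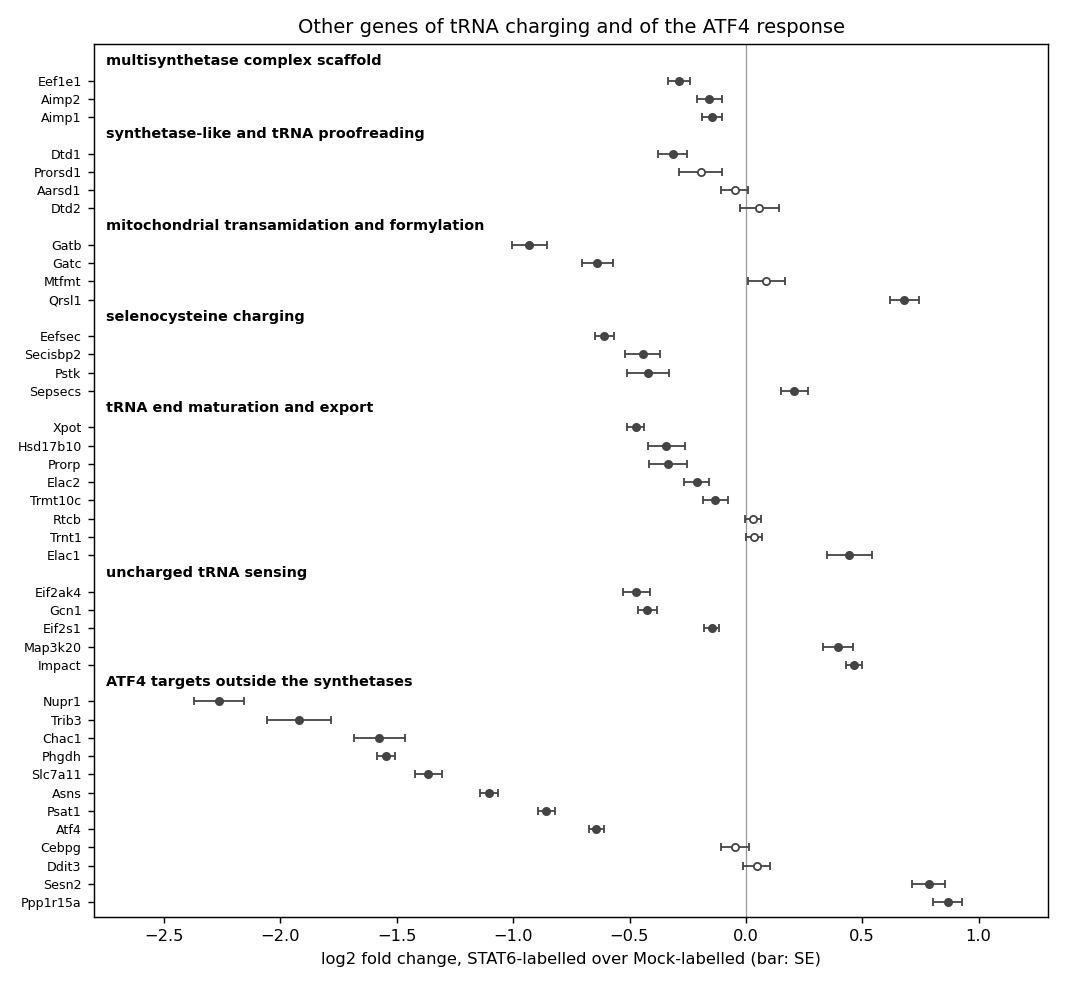
Log2 fold change, STAT6-labelled over Mock-labelled, with SE (x axis), of 40 tested genes in 7 lists around tRNA charging (rows). Filled dots passed an adjusted p of 0.05 and open dots did not. Qrsl1 stands to the right of zero while Gatb and Gatc stand to the left, and 8 of the 12 genes in the ATF4 list lie left of zero with filled dots.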

How the data were processed

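Per the submitters' processing notes, FastQC, STAR, Salmon and edgeR were used, without versions, with the human build GRCh37. The counting step, its strand setting and any filter were not given in the sources used. Per the labels' protocols, the kit was a stranded mRNA kit. The deposited files hold 1 whole-number count per gene symbol in each of the 6 libraries. The symbols are mouse symbols, no mouse genome or transcript lengths were used, and no coordinates or sequences are given.

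Counts were analysed with edgeR 4.0.16 (R 4.3.3, limma 3.58.1): filterByExpr by group (12938 genes, 99.9% of counts), TMM scaling, a 2-sided quasi-likelihood test with robust = TRUE on group alone, and Benjamini-Hochberg adjusted p-values over every gene tested. CPM were taken on TMM-adjusted totals. A fold change is STAT6-labelled over Mock-labelled. Ratios of raw counts used an exact permutation test over 20 assignments. The fit was tested on simulated data with 200 changed genes among the 12938. In the real data 72.6% of genes passed, so the simulation does not cover changes of that extent. Same-label libraries differed by a median chi-square 1.46 to 2.48 times the counting expectation, so none was a copy.

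The members and lists were chosen with earlier results of these data known. Every member is named, except 1 that enters the counts, sums and medians but is not reported here. Values per library are given for the 8 largest changes past the threshold in each compartment, for gene pairs called in opposite directions, and for others that a result turns on. Alternatives were DESeq2 size factors, library totals, upper-quartile scaling, limma-voom, DESeq2 1.42.0, no filter, a minimum of 1 CPM in 3 libraries, a block for the replicate number, each library left out, an adjusted p of 0.01, and Gars and Kars left out. Leaving out Lars2, or Gm26917 from the totals, was added after seeing the data.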

Additional observations from a re-analysis of the deposited data

How the results depend on the processing

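With all members kept, counts of genes called lower ranged from 13 to 16 (library totals) for the cytosolic set, against 13. They ranged from 13 to 14 for the mitochondrial set, against 14. Leaving out Gars and Kars, both called lower, gave 11 of 18 by construction. The count of cytosolic genes called higher, 2, was 1 with library totals, with no filter and at an adjusted p of 0.01. The mitochondrial count of genes called higher, 1, was 0 without Lars2, by construction, since Lars2 was that gene. The median difference, mitochondrial minus cytosolic, was -0.31 and lay between -0.33 and -0.26 with 1 library left out. The value of -0.26, without STAT6 replicate 2, lay further from -0.31 than the spread between replicates of 0.04. Without Lars2 the median difference was -0.34, within that spread. Of 17 mitochondrial to cytosolic ratios, 9 to 10 were lower and 4 to 6 higher without overlap with 1 library left out.

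Members that had not passed the threshold changed sign near 0. Under library totals log2 values were -0.064 for Dars, -0.072 for Eprs (adjusted p = 0.0352), -0.033 for Hars and -0.012 for Hars2. Under upper-quartile scaling they were -0.0057 for Dars and -0.014 for Eprs, and with no filter -0.0064 for Dars and -0.014 for Eprs. With 1 library left out, Dars lay between -0.0027 and 0.016, Eprs between -0.032 and 0.024, and Hars2 between -0.046 and 0.15. Rars passed as lower under upper-quartile scaling (-0.083) and without Mock replicate 2 (-0.075), and Qars was lost with no filter (adjusted p = 0.0655). The causes were not tested.

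Deviations from the group mean correlated weakly between same-numbered libraries (0.060, 0.096 and 0.018). Differently numbered libraries were not compared, so these values cannot decide whether the replicate numbers paired the libraries. With the replicate number as a block, counts of members called lower were 13 and 14 as before, and Lars2 stood at 1.34 (adjusted p = 0.0351). Depth limits Pars2 most, with 41 to 122 counts per library.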
